A study of Mus musculus with 18 samples.

Results

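The genes described here encode the proteins of the cytosolic ribosome and the factors that start translation, and the question was where the clock transcription factor BMAL1 lay near them in 3 mouse tissues. They were chosen by symbol among 21887 protein-coding genes on the chromosomes of RefSeq's GRCm38.p6 annotation. The choice took every symbol that starts with Rpl or Rps and a digit, without the Rps6k kinases, or with Eif and a digit. It gave 143 genes, made up of 53 Rpl genes, 34 Rps genes and 56 Eif genes. By symbol alone, 116 of them stand for core ribosomal proteins or initiation factors, and the other 27 are paralogs, kinases and binding proteins. A peak was counted at a gene when its centre lay inside the gene or within 10 kb of either end.

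Rpl proteins build the large ribosomal subunit and Rps proteins the small one. Initiation factors load the small subunit with initiator tRNA, bring it to the capped end of an mRNA and let it scan to the start codon, where the large subunit joins. The eIF4 factors read the cap and unwind the leader, eIF2 carries the initiator tRNA, eIF3 holds the complex together, and eIF5 and eIF5B complete subunit joining. BMAL1 pairs with CLOCK and binds E-boxes, of which CACGTG is the best known form. In mouse liver, synthesis of parts of the translation machinery is known to follow the daily cycle.

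The mice were wild-type C57BL/6 aged 3 to 6 months, and their liver, kidney and heart were taken for BMAL1 ChIP-seq. They lived under a cycle of 12 h light and 12 h dark, and the tissues were collected 6 h after lights on. Each tissue had 3 ChIP and 3 input libraries, with the tissues taken from the same mice, 18 libraries in all. For the heart inputs the source field says kidney where title and tissue say heart, so the input behind the heart list could not be settled. The authors pooled all libraries of a tissue into 1 peak list, so no value has an error between animals and no test over animals was possible.

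There were 4813 peaks in liver, 4034 in kidney and 2519 in heart, with 1 fixed peak width per list between 188 and 242 bp. The authors' whole-number score per peak ran from 14 to 389 over the lists. Its scale is not given, so it served only to rank peaks within a list, with rank 1 as the highest score. Read depth is unknown. All 12 clock genes taken as known BMAL1 targets, among them Per1, Per2, Cry1, Nr1d1 and Dbp, had a peak within 10 kb in each list. Peak lists measure no RNA, so the tissue labels could not be checked through expression. Of 5 marker genes per tissue, a peak of the labelled tissue lay at Cps1 in liver, at Lrp2 and Slc34a1 in kidney and at Myl2 in heart. Liver peaks also lay at 2 kidney markers and 1 heart marker, and a kidney peak at 1 heart marker, so the kidney and heart markers did not separate the labels.

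BMAL1 peaks lay at 34 of the 143 translation genes in liver, 32 in kidney and 19 in heart. These counts are 23.8% in liver (exact 95% interval 17.1 to 31.6%), against 18.1% of all protein-coding genes, 22.4% in kidney (15.8 to 30.1%) against 18%, and 13.3% in heart (8.19 to 20.0%) against 11.5%. In every tissue the share over all protein-coding genes lay inside the interval of the translation genes, so the overall share was near the background. That reading ended in liver when only the better-scoring 50% of peaks were kept, where 17.5% of the translation genes (11.6 to 24.7%) stood against 11% of all genes. It ended there too with lists cut to equal length (17.5%, 11.6 to 24.7%, against 11.5%). In both cases the lower bound was close to the background. In kidney and heart the background stayed inside the interval under both settings. Within 1 kb and within 5 kb it stayed inside in every tissue. The reading also ended within 50 kb in liver (48.3%, 39.8 to 56.8%, against 34.0%) and in kidney (46.2%, 37.8 to 54.7%, against 33.1%). Within 10 kb of a translation gene lay a mean of 1.43 other protein-coding genes (median 1). Over all protein-coding genes the mean was 1.08 (median 1), and the part of such neighbours in the counts was not tested. The intervals treat genes as units and cover counting error only. A peak of any tissue was present at 48 of the genes (33.6%, against 30.7% of all genes), and 95 had none in the lists.

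The families differed in their shares. Of the 56 Eif genes, 19 had a liver peak (33.9%, interval 21.8 to 47.8%), 16 a kidney peak (28.6%, 17.3 to 42.2%) and 11 a heart peak (19.6%, 10.2 to 32.4%). Of the 53 Rpl genes, 8 had a liver peak (15.1%), 10 a kidney peak (18.9%) and 6 a heart peak (11.3%). The 34 Rps genes had a liver peak in 7 cases (20.6%), a kidney peak in 6 (17.6%) and a heart peak in 2 (5.88%). Only the liver share of the Eif genes had an interval that left out the background share of its tissue, and this interval overlapped those of both ribosomal families. Ribosomal protein genes are short, with a median length of 3.16 kb for Rpl, 3.11 kb for Rps, 18.5 kb for Eif and 17.17 kb for all protein-coding genes, and the part of gene length in the difference was not tested.

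**Figure D1:**
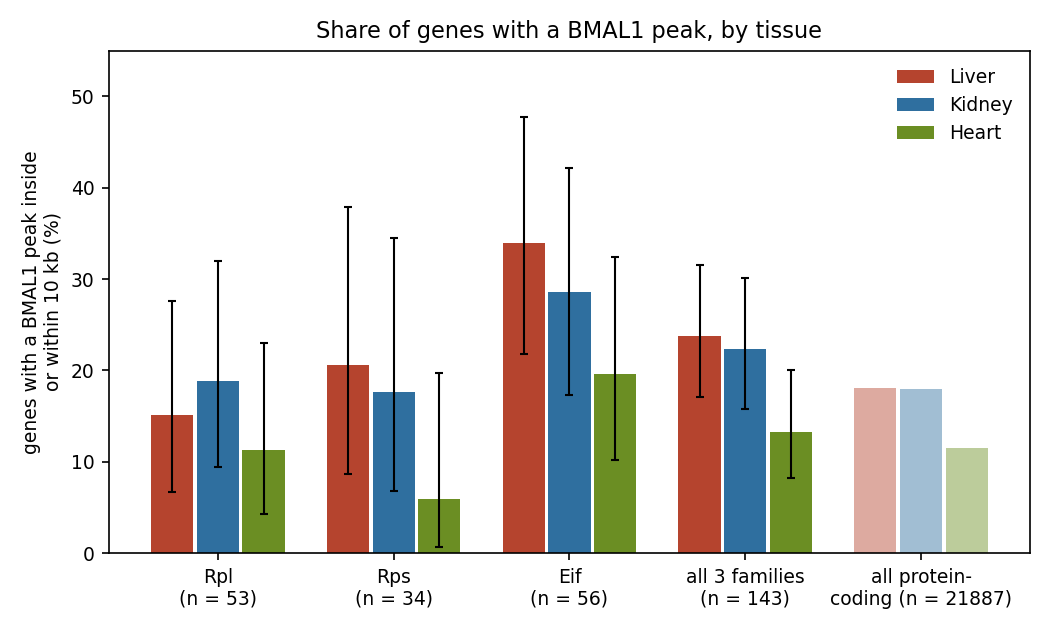
Share of genes with a BMAL1 peak inside the gene or within 10 kb, in percent, for each gene family and tissue. Bars are shares, lines are exact 95% intervals that cover counting error only, and pale bars give all 21887 protein-coding genes. The Eif bars are the highest of the 3 families in each tissue, from 33.9% in liver to 19.6% in heart, and for all 143 genes together the pale bars lie within the intervals.

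A narrower window gave fewer genes. With peaks inside the gene or within 1 kb, 20 genes were left in liver (14.0%, against 13.1% of all protein-coding genes), 18 in kidney (12.6%, against 13.3%) and 12 in heart (8.39%, against 8.83%). All 3 tissues had such a peak at 6 genes (4.2%, against 3.0%). In liver, 1 of 53 Rpl genes (1.89%), 4 of 34 Rps genes and 15 of 56 Eif genes (26.8%) kept a peak. In kidney these counts were 4 (7.55%), 3 and 11 (19.6%), and in heart 4 (7.55%), 1 and 7 (12.5%). Rpl13a fell just past this cut in liver, at 1009 bp, and was kept in kidney and heart. At the edge of the window lay a kidney peak 9.63 kb from Eif4a1 and a peak of each tissue between 9.37 and 9.40 kb from Rpl18. Just outside it, each tissue had a further peak 10.4 to 10.5 kb from Rpl18, with scores of 315 in liver (rank 5), 238 in kidney (rank 12) and 256 in heart (rank 10). Next came peaks 11 kb from Rps14 in heart and 11 to 11.1 kb from Rps15 in liver and kidney, and those genes were not counted there.

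A peak in all 3 tissues was found at 14 of the 143 genes (9.79%), against 4.35% of all protein-coding genes. Among them were Eif1ad, Eif2ak1, Eif3a, Eif3d, Eif4a1, Eif4b, Eif4g1, Eif5a2, Rpl7l1, Rpl13a, Rpl14, Rpl18 and Rps28. At 13 of the 14 (9.09%, against 3.09%) the tissues shared a region, which means that their peaks overlapped by at least 1 bp. Eif3a was the exception, with the liver peak 38.6 kb from the kidney and heart peaks, at the other end of the gene. Peaks in liver and kidney only were found at 8 genes (5.59%, against 5.42% of all protein-coding genes). Liver and heart only had peaks at Eif4ebp1 (0.699%, against 1.32%), and kidney and heart only at none of the genes (0%, against 1.57%). Liver alone had a peak at 11 genes (7.69%, against 7.0%), kidney alone at 10 (6.99%, against 6.68%) and heart alone at 4 (2.8%, against 4.3%). The patterns without heart lay near the background. Those with heart but short of all 3 tissues lay below it, on few genes and without a test.

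Merged over the lists, the peaks at the translation genes formed 58 regions. All 3 tissues had a peak in 13 regions (22.4%, interval 12.5 to 35.3%), 2 tissues in 8 (13.8%) and 1 tissue in 37 (63.8%, interval 50.1 to 76.0%). Of the 7409 regions within 10 kb of any protein-coding gene, 6.44% had a peak in all 3 tissues and 77.9% in 1 tissue only. Liver alone held 17 regions (29.3%, against 33.0% of the 7409), kidney alone 15 (25.9%, against 26.8%) and heart alone 5 (8.62%, against 18.2%). Liver and kidney shared 7 (12.1%, against 11.3%), and kidney and heart shared 1, at Eif3a (1.72%, against 2.77%).

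Many of these regions lay nearer to a gene outside the chosen families. A translation gene was the nearest protein-coding gene for 35 of the 58 regions, and another gene was nearest for 23. Among the 35, 5 had a peak in all 3 tissues (14.3%, interval 4.81 to 30.3%), and among the 23, 8 did (34.8%, interval 16.4 to 57.3%). Of the 7409 regions within 10 kb of any protein-coding gene, 6.44% did, which lies inside the interval of the 35 and below that of the 23. The intervals of the 35 and the 23 overlap, and the 8 include both common regions inside Dbp. Counted by nearest gene, 20 translation genes had a peak in liver (14.0%, against 13.7%), 17 in kidney (11.9%, against 13.3%) and 10 in heart (6.99%, against 8.9%). By this count, translation genes had a peak in all 3 tissues in 5 cases (3.5%, against 2.9% of all protein-coding genes). Among these 5 genes were Eif4a1, Eif4g1, Eif5a2 and Rpl14. At the other common regions the nearest genes were Banf1, Aimp2, Foxred2, Tns2, Dbp, 2310039H08Rik and Kank3, of which Dbp is itself a clock output gene.

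**Figure D2:**
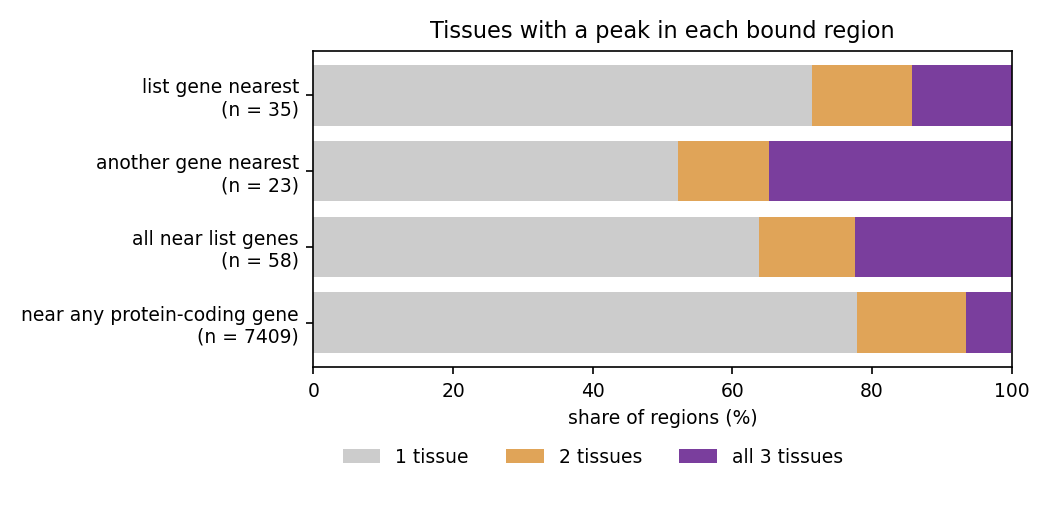
Share of regions, in percent, that had a peak in 1, 2 or all 3 tissues. The bars show the 35 regions whose nearest protein-coding gene is a translation gene, the 23 with another gene nearer, all 58, and the 7409 regions within 10 kb of any protein-coding gene. The part found in all 3 tissues is 34.8% where another gene was nearer and 14.3% where a translation gene was nearest. Their intervals (16.4 to 57.3% and 4.81 to 30.3%) overlap. For the 7409 regions this part is 6.44%, below the first interval and inside the second.

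Peaks at translation genes stood high in their lists. The median rank was at 26.0% of the list in liver (37 peaks), at 26.8% in kidney (36 peaks) and at 10.6% in heart (19 peaks). For all peaks within 10 kb of a protein-coding gene the medians were 45.8, 46.5 and 44.6%. In liver the median score was 49 for the peaks nearest to a translation gene and 98 for those nearer to another gene. In kidney these medians were 40 and 62, and in heart 39.5 and 80. The medians over all peaks at protein-coding genes were 42, 29 and 27.

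**Figure D3:**
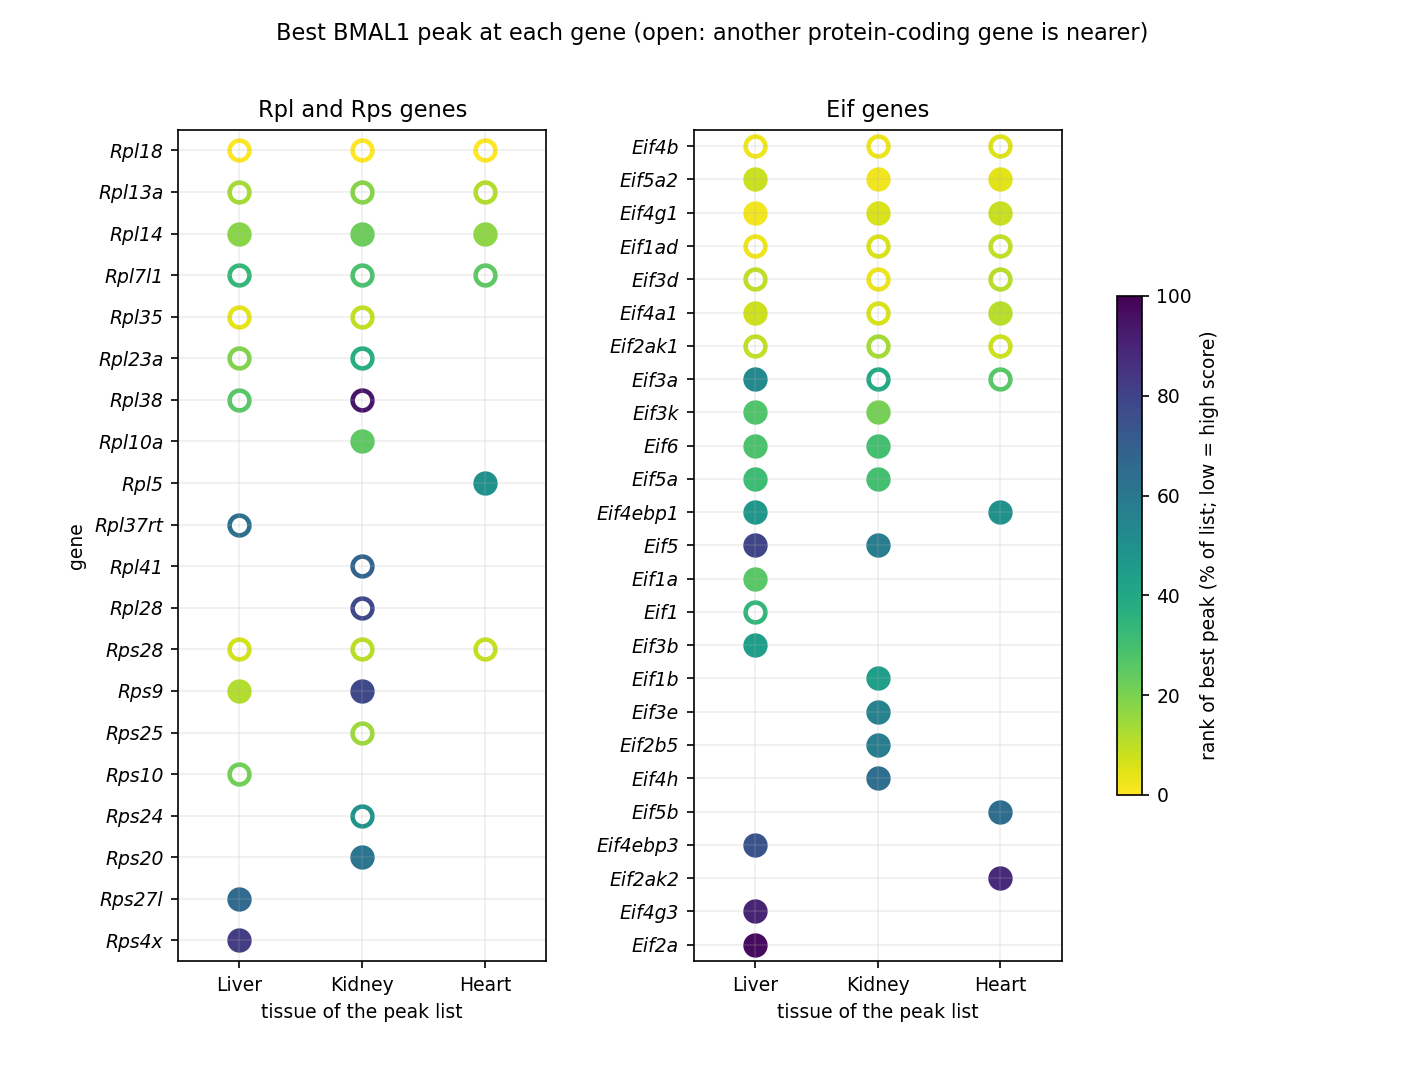
The best-ranked BMAL1 peak at 45 of the 48 genes with a peak, by tissue. Colour gives the rank as a percentage of the list, where a low value is a high score, and open circles mark peaks with another protein-coding gene nearer. The genes with peaks in all 3 tissues at the top of each family hold most of the well-ranked peaks, and more of these are open than filled.

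Among the eIF4 factors, BMAL1 peaks of all 3 tissues lay at the start sites of Eif4g1 and Eif4a1. Eif4g1 encodes the scaffold that joins the cap-binding protein to the small subunit. Its peak at the start site scored 168 in liver (rank 93 of 4813), 94 in kidney (rank 236 of 4034) and 81 in heart (rank 216 of 2519). The centres lay at most 13 bp from the annotated start. A further peak in liver, 1.41 kb downstream inside the gene, scored 103 (rank 433) and had no counterpart in the kidney and heart lists. Eif4a1 encodes the helicase that unwinds mRNA leaders. Its common region had scores of 110 in liver (rank 362), 76 in kidney (rank 373) and 72 in heart (rank 268), with centres 170 to 183 bp upstream of the start. The higher-scoring kidney peak in its window, at rank 245, lay inside Senp3.

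The promoter sequences of these genes are shown because each holds CACGTG inside the peak. The stretches are the part of RefSeq's promoter window (250 bases before to 50 after a start site, GRCm38.p6) covered by the peak, 5′ to 3′ on the gene's strand, with CACGTG in capitals and no more than 30 bases after the start. Eif4g1 is at chr16:20672607-20672756 on the plus strand and Eif4a1 at chr11:69672474-69672673 on the minus strand. Positions are counted from the start site, whose base is 1, with negative positions upstream. In Eif4g1 the 2 copies begin at -54 and 16, with 63 bases between them, and the peak centres lay 5 to 31 bp from the second copy and 38 to 64 bp from the first. In Eif4a1 the single copy begins at -189, 3 to 16 bp from the centres of the 3 peaks.
Eif4g1: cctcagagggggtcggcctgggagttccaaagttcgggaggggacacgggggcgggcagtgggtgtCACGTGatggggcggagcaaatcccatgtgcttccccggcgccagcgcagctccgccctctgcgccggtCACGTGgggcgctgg
Eif4a1: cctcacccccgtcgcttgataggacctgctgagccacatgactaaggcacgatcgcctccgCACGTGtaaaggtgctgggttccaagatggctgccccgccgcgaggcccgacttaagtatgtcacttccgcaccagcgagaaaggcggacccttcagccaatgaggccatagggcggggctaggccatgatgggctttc

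The remaining eIF4 genes were bound less evenly. Eif4h, which encodes a stimulator of the eIF4A helicase, had a peak in kidney only, with a score of 22 at rank 2591 and a centre 127 bp upstream of the start. Eif4b encodes another helicase stimulator. In its window the best peaks were well ranked, at 123 in liver, 117 in kidney and 129 in heart, but they lay inside Tns2, 7.10 to 7.12 kb beyond the gene. A weaker peak in liver lay in Eif4b itself, 835 bp downstream of the start (score 43, rank 2127). Eif4g3, an Eif4g1 relative, had a liver peak at rank 4329, far inside the gene. In all, 5 of the 13 eIF4 genes had a peak (38.5%, against 30.7% of all protein-coding genes). Eif4e, which encodes the cap-binding protein, was among the 8 with none within 10 kb in the lists.

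Of the eIF4E-binding proteins, which block cap-dependent initiation when dephosphorylated, Eif4ebp1 and Eif4ebp3 had peaks. Eif4ebp1 had a liver peak of score 41 (rank 2268) and a heart peak of score 25 (rank 1257), 599 bp apart, both inside the gene and not overlapping. Eif4ebp3 had a liver peak of score 26 (rank 3576). All of these stand in the middle or lower part of their lists.

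Each of the 5 genes of the eIF5 group had a peak in some tissue, against 30.7% of all protein-coding genes. A liver peak lay at 4 of them (80.0%, against 18.1% of all protein-coding genes). With 5 genes the interval of this liver share is wide, from 28.4 to 99.5%. It leaves out the liver background but overlaps the interval of the eIF1 group (14.7 to 94.7%). Eif5a2 encodes the less widely expressed of the hypusine-containing elongation factors and had the best-ranked peaks of the group. Its common region scored 108 in liver (rank 381), 139 in kidney (rank 83) and 109 in heart (rank 114), with centres 107 to 128 bp upstream of the start. Eif5a, its main paralog, had overlapping liver and kidney peaks (scores 55 and 40, ranks 1522 and 1198). Eif6 encodes a factor that keeps the subunits apart. It too had overlapping liver and kidney peaks inside the gene (scores 59 and 40, ranks 1362 and 1198), and a further kidney peak 6.68 kb from the first, also inside the gene (score 22). At Eif5, whose product triggers GTP hydrolysis by eIF2, liver and kidney peaks overlapped at 578 and 544 bp downstream of the start, each with a score of 24. Eif5b had a heart peak of score 20, at rank 1624 of 2519. None of Eif5, Eif5a and Eif6 had a heart peak in the list.

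The promoter stretches of Eif5a2 (chr3:28781049-28781290, plus strand) and Eif5a (chr11:69920681-69920880, minus strand) under the liver peaks are shown for the position of their E-boxes. Eif5a2 holds 2 copies of CACGTG, 19 bases apart, that begin at -142 and -117. The centres of the 3 peaks lay between 7 and 32 bp from these copies. Eif5a holds 1 copy, beginning 178 bases before one of its annotated starts and 4 to 6 bp from the peak centres. Measured from the annotated start nearest to them, these centres lay 145 bp (liver) and 135 bp (kidney) downstream, inside the gene.
Eif5a2: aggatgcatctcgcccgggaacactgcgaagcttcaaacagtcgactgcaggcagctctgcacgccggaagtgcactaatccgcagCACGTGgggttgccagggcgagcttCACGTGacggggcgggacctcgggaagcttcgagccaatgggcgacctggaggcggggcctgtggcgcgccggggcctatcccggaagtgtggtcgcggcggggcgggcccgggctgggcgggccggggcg
Eif5a: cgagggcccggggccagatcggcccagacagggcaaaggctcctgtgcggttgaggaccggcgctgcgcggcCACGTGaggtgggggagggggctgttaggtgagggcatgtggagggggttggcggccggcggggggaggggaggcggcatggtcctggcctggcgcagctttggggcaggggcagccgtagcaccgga

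In the eIF1 group, peaks were found at 4 of 5 genes (80.0%, against 30.7% of all protein-coding genes). Eif1b, a paralog of the start-codon recognition factor eIF1, had a kidney peak 32 bp upstream of its start with a score of 30 (rank 1797). Eif1a had a liver peak inside the gene (score 62, rank 1251). At Eif1 the liver peak lay 8.91 kb away, nearer to Gast. Eif1ad had a common region with scores of 158 in liver (rank 117), 95 in kidney (rank 229) and 77 in heart (rank 237), 503 to 520 bp upstream of its start. That region lies inside the neighbour Banf1, whose nearest start is 53 to 70 bp from the peak centres.

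The genes of eIF2 and its exchange factor eIF2B were counted in 1 group with Eif2a and Eif2d. Of these 11 genes, 2 had a peak in some tissue (18.2%, against 30.7% of all protein-coding genes). The intervals per tissue held the background, with 1 of 11 in liver and in kidney (0.23 to 41.3%). Eif2b5, the catalytic subunit of eIF2B, had a kidney peak 66 bp upstream of its start (score 24, rank 2344). Eif2a, a factor separate from eIF2, had a liver peak at rank 4664 of 4813. No gene of the group had a heart peak in the list. Of the kinases that phosphorylate eIF2, Eif2ak2, activated by double-stranded RNA, had a heart peak of score 16 (rank 2215). Eif2ak1, the heme-regulated kinase, had a common region in its window with scores of 99 in liver (rank 465), 63 in kidney (rank 548) and 87 in heart (rank 189). It lies inside Aimp2, 6.89 to 6.90 kb from Eif2ak1.

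The eIF3 complex had peaks at 5 of 14 genes (35.7%), near the 30.7% of all protein-coding genes. Eif3d, the subunit that can bind the cap, had a common region in its window with scores of 98 in liver (rank 483), 121 in kidney (rank 119) and 72 in heart (rank 268). It lies 2.21 to 2.23 kb outside Eif3d and inside Foxred2, 44 to 61 bp from the Foxred2 start. Eif3k had overlapping liver and kidney peaks inside the gene (scores 60 and 50, ranks 1325 and 838), 4119 to 4142 bp downstream of its start. Eif3b, a scaffold subunit, had a liver peak 8 bp from its start (score 43, rank 2127), and Eif3e a kidney peak 6.99 kb away (score 25). At Eif3a the liver peak (score 37) was 4.84 kb upstream of the start, and the kidney and heart peaks (scores 33 and 40) lay inside Nanos1.

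Kidney-only peaks at the start sites of Eif1b, Eif4h and Eif2b5 and the liver-only peak at Eif3b are shown next, because 2 of these sequences hold CACGTG and 2 do not. The stretches are chr9:120492480-120492635 (plus) for Eif1b, chr5:134639443-134639630 (minus) for Eif4h, chr16:20498657-20498844 (plus) for Eif2b5 and chr5:140419176-140419334 (plus) for Eif3b. In Eif1b the copy begins at -24, 11 bp from the peak centre, and in Eif4h at -96, 34 bp from it. The absence of these letters from the other stretches says nothing more than that.
Eif1b: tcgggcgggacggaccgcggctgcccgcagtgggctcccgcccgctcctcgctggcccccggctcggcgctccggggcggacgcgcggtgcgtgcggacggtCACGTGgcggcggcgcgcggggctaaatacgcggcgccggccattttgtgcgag
Eif4h: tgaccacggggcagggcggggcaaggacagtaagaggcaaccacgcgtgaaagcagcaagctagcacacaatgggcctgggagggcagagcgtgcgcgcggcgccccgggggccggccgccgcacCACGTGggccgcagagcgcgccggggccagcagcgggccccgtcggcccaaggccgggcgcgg
Eif2b5: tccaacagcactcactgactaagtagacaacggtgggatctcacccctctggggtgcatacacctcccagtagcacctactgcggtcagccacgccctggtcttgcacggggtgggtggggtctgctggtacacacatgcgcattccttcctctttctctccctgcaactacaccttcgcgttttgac
Eif3b: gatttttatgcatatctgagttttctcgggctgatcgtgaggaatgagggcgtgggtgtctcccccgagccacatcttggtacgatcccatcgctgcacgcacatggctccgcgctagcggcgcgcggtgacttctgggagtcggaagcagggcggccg

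Among the large-subunit genes, Rpl14 alone was the nearest gene to a region common to all tissues. Its peaks scored 76 in liver (rank 848), 48 in kidney (rank 911) and 54 in heart (rank 428), with centres 114, 122 and 58 bp upstream of the start. The heart peak was placed further downstream and did not cover the CACGTG at -168, which the liver and kidney peaks did. A weaker liver peak lay 8.52 kb beyond Rpl14 (score 28). Rpl18 had the highest scores of all the genes, 321, 285 and 308, at ranks 3, 4 and 3 in liver, kidney and heart. These peaks lie inside Dbp, 7.70 to 7.72 kb from Rpl18. A second common region, also inside Dbp, scored 217, 205 and 208 (ranks 35, 22 and 19).

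Rpl13a, which encodes another large-subunit protein, had a common region in its window. It lay 980 to 1009 bp from the gene, with scores of 86 in liver (rank 654), 54 in kidney (rank 735) and 69 in heart (rank 291). A kidney peak 252 bp upstream of the Rpl13a start had a score of 45 (rank 1003). Under this kidney peak the promoter window of Rpl13a holds CACGTG, beginning at -200 and 55 bp from the centre. The stretches of Rpl14 (chr9:120571282-120571523, plus) and Rpl13a (chr7:45128904-45128995, minus) are the ribosomal promoters with an E-box under a peak.
Rpl14: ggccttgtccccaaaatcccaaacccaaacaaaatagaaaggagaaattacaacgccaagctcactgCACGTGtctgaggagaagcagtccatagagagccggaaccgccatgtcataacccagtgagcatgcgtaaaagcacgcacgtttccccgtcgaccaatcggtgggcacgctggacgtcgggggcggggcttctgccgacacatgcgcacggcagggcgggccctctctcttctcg
Rpl13a: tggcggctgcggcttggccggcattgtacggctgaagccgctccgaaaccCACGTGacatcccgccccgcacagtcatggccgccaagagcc

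Other ribosomal protein genes had weaker or more distant peaks. Rpl10a had a kidney peak centred 4 bp from its start (score 45, rank 1003) and Rpl5 a heart peak 11 bp from its start (score 25, rank 1257). Rps9 had overlapping liver and kidney peaks at 575 and 568 bp downstream of its start. Their standing differed, with a score of 92 at rank 554 of 4813 in liver and 18 at rank 3164 of 4034 in kidney. Rps20 had a kidney peak inside the gene (score 23, rank 2474), Rps27l a liver peak 55 bp downstream of its start (score 30, rank 3176) and Rps4x a liver peak inside the gene (score 23, rank 3961). These genes each had a peak in 1 or 2 tissues, and Rps9 in liver and Rpl10a in kidney held the best ranks among them.

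At Rpl7l1, Rpl23a, Rpl28, Rpl35, Rpl37rt, Rpl38, Rpl41, Rps10, Rps24, Rps25 and Rps28 every peak in the window lay nearer to another gene. The region near Rpl7l1 was common to all tissues (scores 53, 41 and 41, ranks 1606, 1155 and 628) and lay 88 to 153 bp from 2310039H08Rik. The one near Rps28, also common (scores 114, 74 and 80, ranks 327, 410 and 222), lay inside Kank3, and the liver and kidney region near Rpl35 (scores 140 and 77, ranks 189 and 365) lay 317 to 323 bp from Wdr38. Near Rpl38 the liver and kidney peaks were 1.25 kb apart at Ttyh2. To set beside the translation genes' own promoters, the neighbours' promoter stretches at 2 common regions are shown, from Foxred2 near Eif3d (chr15:77956693-77956904, minus) and 2310039H08Rik near Rpl7l1 (chr17:46772426-46772664, plus). Both hold CACGTG under the liver peak, in 2 copies in Foxred2. The part of the Banf1 window under the common region near Eif1ad held none. Neither did the neighbours' windows covered at regions that were not common to all tissues, among them those of Senp3, Ttyh2 and Wdr38.
Foxred2: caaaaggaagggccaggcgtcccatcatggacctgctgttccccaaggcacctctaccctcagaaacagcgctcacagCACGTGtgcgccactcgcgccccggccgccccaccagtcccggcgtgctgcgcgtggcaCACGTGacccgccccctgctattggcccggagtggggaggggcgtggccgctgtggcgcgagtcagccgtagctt
2310039H08Rik: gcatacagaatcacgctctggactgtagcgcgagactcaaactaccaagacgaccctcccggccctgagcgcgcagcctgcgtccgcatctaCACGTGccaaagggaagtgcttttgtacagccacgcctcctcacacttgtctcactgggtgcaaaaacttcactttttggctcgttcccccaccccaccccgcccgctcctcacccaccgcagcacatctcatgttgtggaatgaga

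E-boxes were then counted over all promoter windows. A window was given for 111 of the 143 genes. CACGTG, which reads the same on both strands, occurred in a window of 16 of them (14.4%, exact interval 8.47 to 22.4%), against 8.91% of 17492 protein-coding genes. By family these were 10 of 44 Eif genes (22.7%), 5 of 41 Rpl genes (12.2%) and 1 of 26 Rps genes (3.85%). A liver peak centre fell inside the window in 6 of the 111 genes (5.41%, against 3.68% of all genes), a kidney one in 9 (8.11%, against 5.13%) and a heart one in 5 (4.5%, against 2.41%). With any tissue there were 11 such genes (9.91%, against 7.51%), and 7 of these 11 (63.6%, interval 30.8 to 89.1%) held CACGTG. Over all protein-coding genes the same share was 38.7% of 1314 with a peak centre and 6.50% of those without. The broader CANNTG, which includes CACGTG, was in 9 of the 11 (81.8%), near the 78.0% of the 1314 genes with a peak centre. It was in 55.9% of the 111, against 72.1% of all genes. CCGGAAG, an ETS-type motif searched on both strands, was in 36.0% of the 111 windows, against 12.9% of all genes. It was in 3 of the 11 (27.3%), against 20.0% of the 1314.

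An E-box in the window did not go with a peak at every gene. Of the 16 genes with CACGTG, 7 had a peak centre in the window (43.8%, against 32.6% of the 1559 protein-coding genes with CACGTG), and of the 95 without it 4 did (4.21%, against 5.06%). The 4 were Eif2b5, Eif3b, Rpl5 and Rpl10a. Among the genes with CACGTG, 6 had no peak within 10 kb in the lists, namely Eif3f, Eif4e, Rpl19, Rpl23, Rpl34 and Rps19. Eif4e holds 2 copies, 158 bases apart. Where a copy lay within 500 bp of a peak centre, the median distance was 17 bp in liver (7 copies), 22.5 bp in kidney (10 copies) and 15 bp in heart (6 copies), against 28, 31 and 34 bp over all protein-coding windows. The RefSeq windows are short and hold the sequence of few peaks away from start sites, so most of the 58 regions could not be read.

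**Figure D4:**
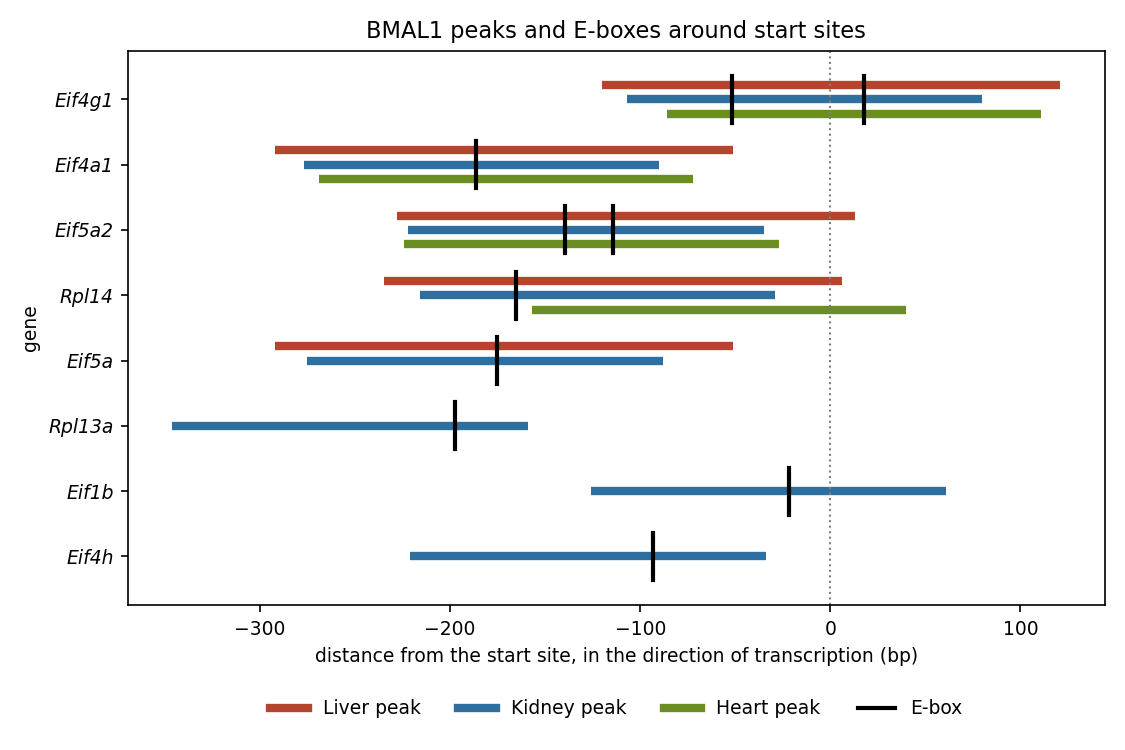
Peaks (coloured bars, by tissue) and CACGTG E-boxes (black ticks) at the 8 genes with an E-box of their own promoter window under a peak, as distance in bp from the start site in the direction of transcription. The ticks fall inside every bar shown but the heart peak of Rpl14, and the start site of Eif4g1 lies between its 2 E-boxes.

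The windows also differed in a feature of ribosomal protein mRNAs, which are known to begin with a run of pyrimidines. A run of at least 7 C or T within 20 bases of a start site was found in 56.1% of Rpl genes, 57.7% of Rps genes and 29.5% of Eif genes with a window, against 27.8% of all protein-coding genes. Among the 11 genes with a peak centre in the window, 4 had such a run (36.4%). The share was 45.9% of the 111 genes with a window and 25.9% of the 1314 protein-coding genes with a peak centre there. Small nucleolar RNAs lay inside 35 of the 143 genes. Of these hosts 10 had a peak in some tissue (28.6%), and of the other 108 genes 38 did (35.2%), on either side of the 30.7% of all protein-coding genes. A peak lay within 10 kb of 4.73% of 296 ribosomal protein pseudogenes in liver, 4.39% in kidney and 2.70% in heart, against 2.94, 2.37 and 1.64% of all 9944 pseudogenes. No peak was centred inside one of the 296, and few were inside any of the 9944 (13 pseudogenes in liver, 13 in kidney and 11 in heart).

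Other genes of translation and ribosome assembly were taken from a list of 70 that holds elongation and release factors, the mTOR pathway, RNA polymerase I and nucleolar proteins. The list was drawn up with earlier results of these data known, so its counts are a description. Peaks lay at 26 of them in liver (37.1%, against 18.1% of all protein-coding genes), 27 in kidney (38.6%, against 18%) and 16 in heart (22.9%, against 11.5%). All tissues had a peak at 10 (14.3%, against 4.35%). The 5 best-ranked by mean rank were Ncl, Mknk2, Eef2k, Bop1 and Mknk1, each with a common region nearest to itself. Ncl, the nucleolar protein nucleolin, scored 196, 147 and 120 in liver, kidney and heart. Mknk1 and Mknk2 encode the kinases that phosphorylate eIF4E, and Eef2k the kinase that inactivates the elongation factor eEF2. Their peaks ranked from 75 to 394 over the lists, with scores of 168, 145 and 116 at Mknk2, 106, 99 and 70 at Mknk1 and 173, 103 and 119 at Eef2k. Bop1, a factor of large-subunit assembly, scored 99, 91 and 101.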

How the data were processed

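BMAL1 ChIP and input libraries of liver, kidney and heart were grouped by their titles. Per the series text, the authors pooled a tissue's libraries into 1 list of peaks, and per the submitters' processing notes mm10, Bowtie2, SAMtools and HOMER were used; roles, filters and parameters were not found there. The deposited score is a whole number per peak of unstated scale. A site missing from a list may lie below its threshold, and depth and the spread between mice are unknown, so no test was run.

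Peak centres were set against genes of RefSeq GRCm38.p6, the build mm10 stands for. Overlaps of 1 bp joined peaks into regions. Start sites, strands and motifs came from RefSeq's promoter table, which held a window for 111 of the 143 genes. Among the other 32 were Eif1a, Eif2b3, Eif3e, Eif3h, Eif3i, Eif3j2, Eif4e1b, Eif4e3, Eif4ebp1, Eif4ebp3, Eif4g2, Eif6, Rpl3, Rpl7, Rpl8, Rpl17, Rpl21, Rpl23a, Rpl29, Rpl30, Rpl32, Rpl34-ps1, Rpl36, Rps14, Rps20, Rps27a and Rps29. Some genes are counted here but not reported by name. Intervals are exact (Clopper-Pearson). Genes, lists and the rule for named genes were chosen with earlier results of these data known: in full, genes at a common region and the 8 best-scoring per tissue; by name, genes with a peak inside or within 1 kb; 5 other pathway genes by mean rank. Code ran in Python 3.11.15 with pandas 2.3.3 and scipy 1.17.1 and was checked on constructed test intervals with known answers.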

Additional observations from a re-analysis of the deposited data

How the results depend on the processing

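Counts of genes with a peak followed the window. Within 1 kb they were 20 in liver, 18 in kidney, 12 in heart and 6 in all 3 tissues, with 6 common regions. Within 50 kb they were 69, 66, 43 and 27, with 26 common regions, which is 48.3, 46.2, 30.1 and 18.9% of the genes against 34.0, 33.1, 22.7 and 11% of all protein-coding genes. Counting only nearest genes gave 20, 17, 10 and 5, with 5 common regions, and a 5 kb window left 8 common regions. The upper 50% of each list by score gave 50% of regions in 1 tissue and median ranks of the best peak at 27.2, 36.0 and 20.3% of the shortened lists in liver, kidney and heart, against 26.0, 26.7 and 11.6% of the whole lists. A shorter list moves such a rank by construction. In shortened lists the share over all genes fell further than the counts. With the upper 50% it was 17.5% of the translation genes against 11% in liver, 16.1 against 10.7% in kidney, 11.9 against 7.15% in heart and 9.09 against 3.24% in all 3 tissues. With the same number of top peaks these were 17.5 against 11.5%, 18.2 against 12.8%, 13.3 against 11.5% and 9.09 against 3.67%. The other 31 values, among them those from the same number of top peaks per list, core genes only, other overlap rules or another E-box form, kept within 1.5 times the count or inside the interval. No paired analysis was possible because each tissue has 1 pooled list, and no replicate could be left out for the same reason. Promoter windows, not whole peaks, were searched for motifs, since no genome sequence was used here.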
